A study of Mus musculus with 12 samples.

Results

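Regulatory T cells (Tregs), the Foxp3-expressing T cells that restrain immune responses, were profiled for Pparg and 9 genes of fatty acid uptake and storage (Cd36, Fabp4, Fabp5, Lpl, Plin2, Dgat1, Dgat2, Scd1 and Scd2). These 10 genes, of 19057 named on the array, were taken with every probe annotated to them, which gave 14 probes. Of these, 12 passed a filter on dim probes and all 10 genes kept at least 1 probe. The question was whether these genes differed between Tregs of fat and spleen, and between Tregs with and without floxed Tbet.

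The samples were 12 single-colour Illumina mouse arrays, 3 for each of 4 groups, of Tregs from C57BL/6 mice on a high fat diet. The groups were perigonadal white adipose tissue (PGWAT) of Tbetflox Foxp3Cre mice (PGWAT Tbet flox), PGWAT of Foxp3Cre mice (PGWAT control), spleen of Tbetflox Foxp3Cre mice (spleen Tbet flox) and spleen of Foxp3Cre mice (spleen control). The design text calls the alleles Foxp3-YFP-Cre and Tbx21-flox; Tbx21 encodes the transcription factor T-bet. All 4 groups carried Foxp3Cre, in which the Foxp3 promoter drives the Cre recombinase, so the floxed gene is targeted in cells that use that promoter. Age, sex and whether the arrays of a group came from separate animals were not given in the sources used here, so the p-values measure the spread between these arrays, which may be technical. Each tissue was on a chip of its own, and tissue and chip cannot be told apart.

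PPARγ, the product of Pparg, is a nuclear receptor that binds fatty acids, pairs with RXR receptors and switches on genes of lipid uptake and storage, best known from fat cell differentiation. It is also known as a regulator of the Tregs that live in visceral fat, which take up lipid through Cd36. Fatty acids released from lipoproteins by Lpl enter through Cd36, are carried by Fabp4 and Fabp5, are desaturated by Scd1 and Scd2, and are joined to diglyceride by Dgat1 or Dgat2 into the triglyceride of droplets that Plin2 coats. Several of these genes are not specific to Tregs: adipocytes, endothelial cells and macrophages are known to use Cd36, Fabp4 and Lpl.

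RefSeq start site windows were available here for 3 of the 10 genes, each reaching from 250 bases before to 50 bases after a start, on build GRCm38.p6. They are shown because PPARγ with RXR binds repeats of AGGTCA, and Pparg, Cd36 and Plin2 are the genes that had windows. Capitals mark AGGTCA or its reverse complement TGACCT, searched on both strands. The 4 windows shown are the first (upstream) and the third (downstream) start of Pparg, chr6:115360894-115361193 and chr6:115421816-115422115 on the plus strand, the start of Cd36, chr5:17835847-17836146 on the minus strand, and the start of Plin2, chr4:86670010-86670309 on the minus strand.
Pparg, the upstream start: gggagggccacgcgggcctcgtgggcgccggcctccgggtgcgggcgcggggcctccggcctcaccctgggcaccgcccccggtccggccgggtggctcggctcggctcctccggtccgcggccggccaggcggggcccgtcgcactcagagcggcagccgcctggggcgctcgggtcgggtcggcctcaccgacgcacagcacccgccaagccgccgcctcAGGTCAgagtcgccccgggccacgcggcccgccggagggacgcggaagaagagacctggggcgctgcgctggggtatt
Pparg, the downstream start: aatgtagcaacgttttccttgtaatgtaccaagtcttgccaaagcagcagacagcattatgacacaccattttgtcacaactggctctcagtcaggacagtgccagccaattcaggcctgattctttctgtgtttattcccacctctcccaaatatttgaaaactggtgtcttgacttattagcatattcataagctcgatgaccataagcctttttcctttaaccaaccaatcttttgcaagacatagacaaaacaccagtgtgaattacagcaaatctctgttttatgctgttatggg
Cd36: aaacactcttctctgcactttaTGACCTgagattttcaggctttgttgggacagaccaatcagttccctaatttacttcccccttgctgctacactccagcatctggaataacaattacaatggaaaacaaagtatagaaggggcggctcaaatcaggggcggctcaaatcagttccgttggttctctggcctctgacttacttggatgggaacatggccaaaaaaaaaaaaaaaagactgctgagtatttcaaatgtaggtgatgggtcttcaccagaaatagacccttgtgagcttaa
Plin2: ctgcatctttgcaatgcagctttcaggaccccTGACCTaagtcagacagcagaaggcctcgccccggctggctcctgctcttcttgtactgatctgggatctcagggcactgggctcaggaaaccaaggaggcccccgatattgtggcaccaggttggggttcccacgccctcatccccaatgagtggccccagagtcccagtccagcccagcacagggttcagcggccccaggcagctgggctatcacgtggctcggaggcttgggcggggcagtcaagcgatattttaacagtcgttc

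The AGGTCA core was in 4 of the 5 windows of these genes, against 16.3% of 32851 promoter windows of the same length. Its first base lay 28 bases before the first Pparg start, 9 bases before the second, 228 bases before the Cd36 start and 218 bases before the Plin2 start. The third Pparg start held none. The full repeat AGGTCANAGGTCA, with 1 base between the cores, was in 0 of the 5 windows and in 0.0396% of all windows. These are matches of letters in few windows, several of them from Pparg alone. Binding was not measured, and any link of the core to the tissue differences was not tested. The upstream and downstream Pparg windows differ in base composition, with 80.3% and 40.3% G and C. The starts belong to the alternative promoters of Pparg, and the probes were not assigned to transcripts here.

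Arrays detected 15274 to 20291 of 45281 probes above background (detection p under 0.05). PGWAT arrays varied more among themselves than spleen arrays: the correlation between arrays of a group was 0.805 to 0.857 in PGWAT Tbet flox, 0.752 to 0.783 in PGWAT control, 0.984 to 0.989 in spleen Tbet flox and 0.975 to 0.982 in spleen control. Tbx21, the targeted gene, was dim and not called by genotype: it averaged 5.95 ± 2.17 in PGWAT Tbet flox, 5.66 ± 1.52 in PGWAT control, 4.88 ± 0.15 in spleen Tbet flox and 5.26 ± 0.67 in spleen control (log2 level, SD, n = 3 each; limma adjusted p = 0.965 in PGWAT and 0.532 in spleen). Whether its probe lies in the floxed part was not given in the sources used here, so this did not check the genotype labels. Foxp3 averaged 8.36 ± 0.64 in PGWAT Tbet flox, 7.54 ± 2.04 in PGWAT control, 8.54 ± 0.25 in spleen Tbet flox and 8.63 ± 0.26 in spleen control. PGWAT arrays also held transcripts of other cells. Summed stromal marker intensity (6 tested genes, 1 probe each, normalized values on a linear scale) was 1804 to 3981 in PGWAT Tbet flox, 2173 to 8571 in PGWAT control, 122 to 131 in spleen Tbet flox and 127 to 129 in spleen control, where no stromal marker was above background on any array. In this bulk RNA, fewer cells of a type and less RNA per cell cannot be told apart.

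Most of these genes differed between the tissues. Pparg, Cd36, Fabp4, Lpl, Plin2, Dgat1 and Scd1 were higher in PGWAT than in spleen Tregs, in Tbet flox and in control mice, while Fabp5, Dgat2 and Scd2 did not pass the test in either. The largest measured differences were those of the fatty acid transporter Cd36 and the carrier Fabp4; genes not above background in spleen, among them Scd1, have only a lower bound, so their order is not set. Levels below are log2 intensities after background correction and quantile normalization. A call needed an adjusted p under 0.05 from limma over all 22833 kept probes.

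**Figure D1:**
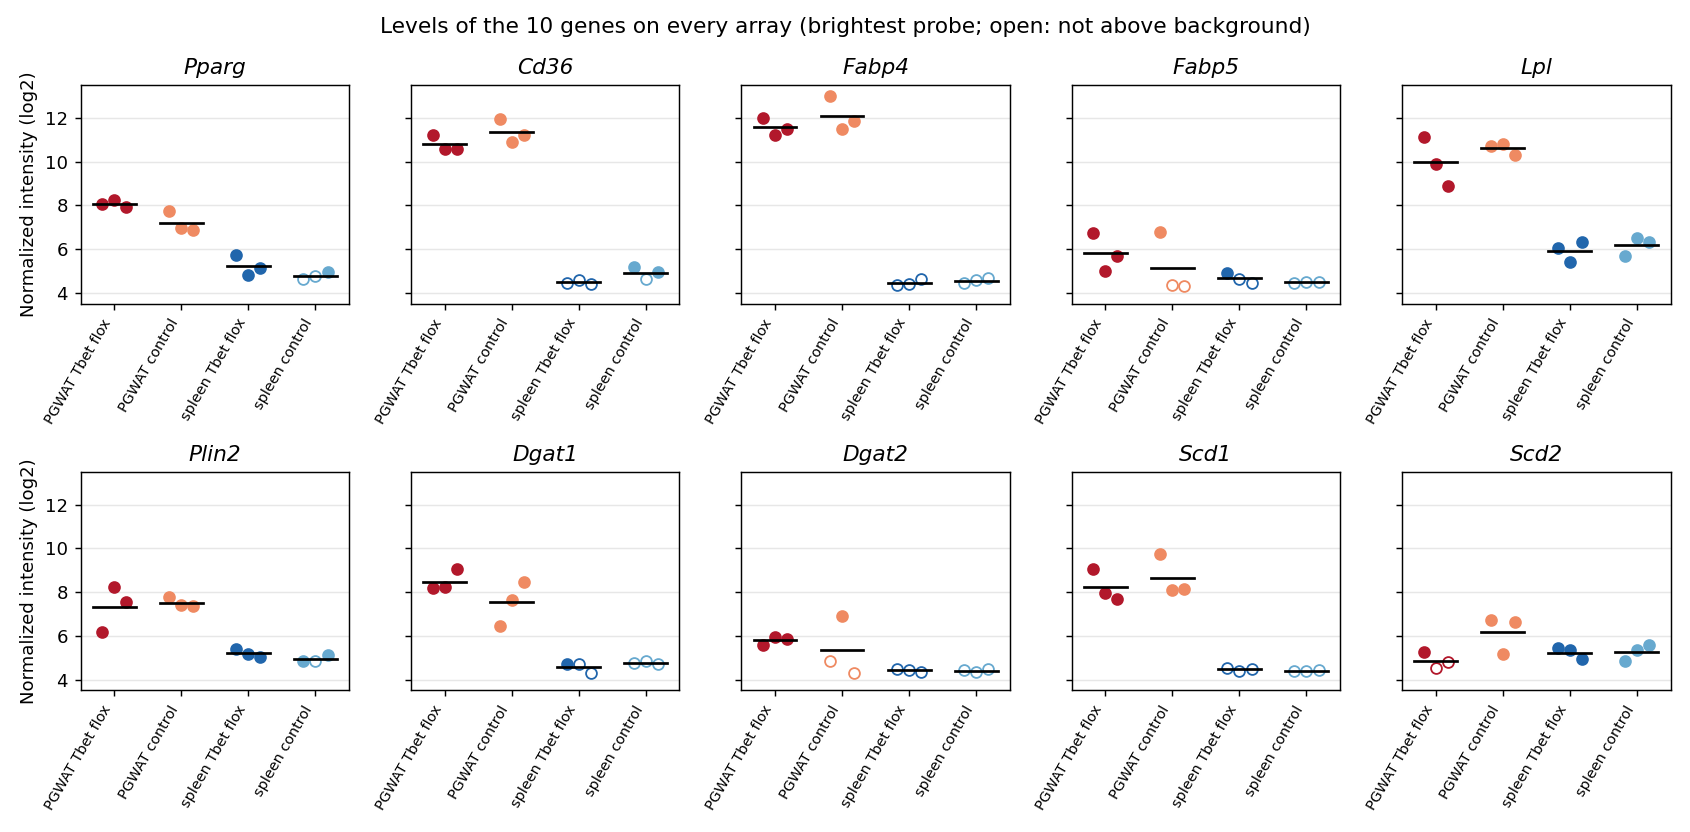
Log2 normalized intensity (y) of the brightest probe of each of the 10 genes on all 12 arrays, by group (x); the line is the group mean and open circles are arrays where the probe was not above background. Pparg, Cd36, Fabp4, Lpl, Plin2, Dgat1 and Scd1 sit higher on every PGWAT array than on every spleen array, and Fabp5, Dgat2 and Scd2 lie low with overlapping ranges in control mice.

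Pparg, the nuclear receptor (chromosome 6, 115360879 to 115490404), had levels of 8.05, 8.23 and 7.93 in PGWAT Tbet flox Tregs, 7.72, 6.94 and 6.89 in PGWAT control, 5.74, 4.80 and 5.15 in spleen Tbet flox, and 4.61, 4.78 and 4.94 in spleen control. The group means thus ran from PGWAT Tbet flox through PGWAT control and spleen Tbet flox to spleen control, and the lowest PGWAT array lay above the highest spleen array. PGWAT exceeded spleen by 2.84 ± 0.30 (log2 difference ± SE, limma adjusted p = 0.000223) in Tbet flox and by 2.41 ± 0.30 (adjusted p = 0.000529) in control mice, which are 7.17-fold and 5.31-fold. This probe was above background on all 3 arrays of each other group but on only 1 spleen control array, so the size of the control fold is uncertain. The neighbours within a tissue did not differ by the test (below), and PGWAT control against spleen Tbet flox was not tested because tissue and genotype both differ. Its second probe averaged 7.09 ± 0.83 in PGWAT Tbet flox and 7.05 ± 1.82 in PGWAT control, against 4.62 ± 0.14 in spleen Tbet flox and 4.54 ± 0.11 in spleen control (SD, n = 3). That probe was above background on 1 spleen Tbet flox array and on 0 spleen control arrays, so in control mice it gives only a bound, PGWAT at least 4.77-fold above spleen (measured difference 2.51 ± 0.72, adjusted p = 0.0392). In Tbet flox mice its measured difference was 2.47 ± 0.72 (adjusted p = 0.0542). Its call in control mice was lost without array 1 (1.68, adjusted p = 0.0871) or array 3 (2.37, adjusted p = 0.0813) of PGWAT control, without spleen control arrays 1, 2 or 3 (adjusted p = 0.111, 0.102 and 0.115), and under 7 other alternatives, so the result for Pparg rests on the first probe. The third probe was above background on 1 array, PGWAT Tbet flox 3 (5.36), and was not tested.

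Among the genes of uptake, Cd36, the fatty acid transporter of the cell surface (chromosome 5, 17781690 to 17888959), had levels of 11.19, 10.59 and 10.59 in PGWAT Tbet flox, 11.94, 10.90 and 11.20 in PGWAT control, 4.46, 4.59 and 4.40 in spleen Tbet flox, and 5.20, 4.61 and 4.96 in spleen control. It was bright on every PGWAT array and above background on only 2 of the 6 spleen arrays, both control. Since no spleen Tbet flox array was above background, PGWAT exceeded spleen at least 65.7-fold in Tbet flox mice (measured difference 6.31 ± 0.30, adjusted p = 8.51e-07), and by 6.43 ± 0.30 or 86-fold in control mice (adjusted p = 7.08e-07). At-least folds set the dim group at the lowest signal above background on each array. They do not allow for the spread between arrays.

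Lpl, the lipase that frees fatty acids from lipoproteins (chromosome 8, 68880555 to 68906932), had levels of 11.12, 9.89 and 8.86 in PGWAT Tbet flox, 10.69, 10.82 and 10.30 in PGWAT control, 6.03, 5.42 and 6.34 in spleen Tbet flox, and 5.69, 6.50 and 6.31 in spleen control. Every array of every group was above background, and the 3 PGWAT Tbet flox arrays were spread over more than 2 log2 units. The tissue difference was 4.03 ± 0.49 in Tbet flox (16.4-fold, adjusted p = 0.000643) and 4.44 ± 0.49 in control mice (21.7-fold, adjusted p = 0.000257). A second Lpl probe, annotated to another transcript record, was far dimmer and was not called: PGWAT minus spleen was 0.70 ± 0.29 in Tbet flox (adjusted p = 0.157) and 0.55 ± 0.29 in control mice (adjusted p = 0.233).

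Of the carriers, Fabp4, best known as the fatty acid binding protein of fat cells and macrophages (chromosome 3, 10204342 to 10208616), had levels of 11.98, 11.20 and 11.49 in PGWAT Tbet flox, 12.98, 11.48 and 11.83 in PGWAT control, 4.37, 4.39 and 4.61 in spleen Tbet flox, and 4.43, 4.58 and 4.67 in spleen control. No spleen array was above background. PGWAT exceeded spleen at least 112-fold in Tbet flox (measured difference 7.10 ± 0.36, adjusted p = 1.01e-06) and at least 158-fold in control mice (7.54 ± 0.36, adjusted p = 7.08e-07). Fabp5, its neighbour 188 kb away (10012585 to 10016610) and a carrier also known from T cells, had levels of 6.73, 5.00 and 5.66 in PGWAT Tbet flox, 6.79, 4.36 and 4.29 in PGWAT control, 4.89, 4.63 and 4.47 in spleen Tbet flox, and 4.47, 4.49 and 4.48 in spleen control. It was above background on all 3 PGWAT Tbet flox arrays, on 1 PGWAT control array and on 1 spleen array. The tissue difference was 1.14 ± 0.61 in Tbet flox (adjusted p = 0.278) and 0.66 ± 0.61 in control mice (adjusted p = 0.508); without PGWAT control array 1 the control value turned to -0.16. The second Fabp5 probe was above background on 2 arrays, PGWAT Tbet flox 1 (5.71) and PGWAT control 1 (5.80), the arrays that also had the highest values of the first probe.

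Plin2, the coat protein of lipid droplets (chromosome 4, 86626910 to 86670217), had levels of 6.17, 8.23 and 7.56 in PGWAT Tbet flox, 7.77, 7.40 and 7.36 in PGWAT control, 5.39, 5.15 and 5.04 in spleen Tbet flox, and 4.86, 4.84 and 5.14 in spleen control. PGWAT arrays were all above spleen arrays, with PGWAT Tbet flox 1 the lowest of them. The difference was 2.12 ± 0.42 in Tbet flox (4.35-fold, adjusted p = 0.0107) and 2.56 ± 0.42 in control mice (5.9-fold, adjusted p = 0.00278). Without spleen Tbet flox array 3 the Tbet flox value was 2.04 and was no longer called (adjusted p = 0.0535).

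Of the enzymes of the last step of triglyceride synthesis, Dgat1 was called and Dgat2 was not. Dgat1 (chromosome 15, 76502012 to 76512021) had levels of 8.18, 8.23 and 9.03 in PGWAT Tbet flox, 6.47, 7.65 and 8.47 in PGWAT control, 4.72, 4.73 and 4.32 in spleen Tbet flox, and 4.75, 4.86 and 4.69 in spleen control. It was detected on all PGWAT arrays and on 1 spleen array. PGWAT exceeded spleen by 3.89 ± 0.43 in Tbet flox (14.9-fold, adjusted p = 0.000336) and at least 6.66-fold in control mice (measured difference 2.76 ± 0.43, adjusted p = 0.00213). Dgat2 (chromosome 7, 99153663 to 99182713) had levels of 5.59, 5.96 and 5.87 in PGWAT Tbet flox, 4.85, 6.92 and 4.32 in PGWAT control, 4.50, 4.44 and 4.35 in spleen Tbet flox, and 4.42, 4.35 and 4.46 in spleen control. Dgat2 was above background on all PGWAT Tbet flox arrays, on PGWAT control 2 and on no spleen array. Its difference was not called, at 1.37 ± 0.51 in Tbet flox (adjusted p = 0.121) and 0.95 ± 0.51 in control mice (adjusted p = 0.246). With spleen set at the lowest signal above background, the measured means differed 2.08-fold and 1.48-fold. These folds allow for the dim spleen signal but not for the spread between arrays, and the control groups overlapped. With a spread taken from the 6 Tbet flox arrays alone, the Dgat2 difference passed in Tbet flox mice (limma adjusted p = 0.0106).

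The desaturases, which turn saturated into monounsaturated fatty acids, lie 88 kb apart on chromosome 19. Scd1 (44394450 to 44407709) had levels of 9.07, 7.96 and 7.70 in PGWAT Tbet flox, 9.74, 8.07 and 8.13 in PGWAT control, 4.52, 4.41 and 4.50 in spleen Tbet flox, and 4.38, 4.41 and 4.43 in spleen control. No spleen array was above background, and PGWAT exceeded spleen at least 11.2-fold in Tbet flox (measured difference 3.77 ± 0.45, adjusted p = 0.000561) and at least 14.4-fold in control mice (4.24 ± 0.45, adjusted p = 0.000198). Scd2 (44293676 to 44306864) had levels of 5.25, 4.53 and 4.81 in PGWAT Tbet flox, 6.71, 5.18 and 6.62 in PGWAT control, 5.42, 5.35 and 4.92 in spleen Tbet flox, and 4.85, 5.34 and 5.57 in spleen control. Unlike Scd1, Scd2 was above background on all 6 spleen arrays, and on 1 PGWAT Tbet flox and 3 PGWAT control arrays. PGWAT minus spleen was -0.37 ± 0.40 in Tbet flox (adjusted p = 0.625) and 0.92 ± 0.40 in control mice (adjusted p = 0.156), and the control value was 1.41 and called without PGWAT control array 2 (adjusted p = 0.0103).

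**Figure D2:**
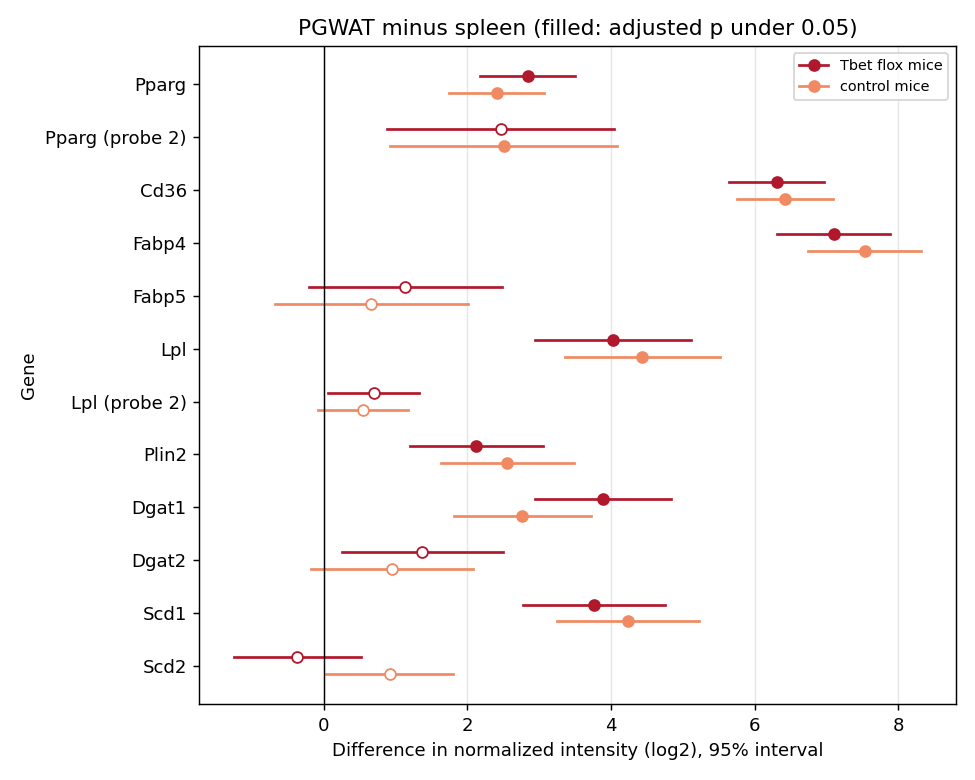
Log2 difference of PGWAT minus spleen (x) with its 95% interval for each tested probe of the 10 genes (y), in Tbet flox mice (upper of each pair) and in control mice (lower). Filled points have a limma adjusted p under 0.05; Fabp4 and Cd36 lie farthest to the right, at 7.10 and 6.31 in Tbet flox and 7.54 and 6.43 in control mice.

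The 3 pairs of genes that share a family name were set against each other by the ratio of their probes within each array, which leaves out anything that scales both. The Fabp4 over Fabp5 log2 ratio was 5.25 to 7.54 on PGWAT arrays and -0.53 to 0.20 on spleen arrays. The Scd1 over Scd2 ratio was 1.51 to 3.82 on PGWAT arrays and -1.14 to -0.42 on spleen arrays. For Dgat1 over Dgat2 the ranges were 0.74 to 4.15 in PGWAT and -0.04 to 0.51 in spleen. The ranges of the tissues thus did not overlap for any pair. In spleen both genes of the Fabp pair and of the Dgat pair were at or near background, with Fabp4 and Dgat2 above it on 0 of 6 arrays and Fabp5 and Dgat1 on 1, so these ratios do not show which gene of the pair changed more. Scd2 was above background on all 6 spleen arrays and Scd1 on none, so that the Scd1 change is a lower bound. For this pair PGWAT minus spleen of the log2 ratio was 3.73. An exact two-sided permutation of the tissue labels within each genotype (400 relabelings) gave p = 0.005, the smallest it can give, and 0.005 after adjustment over the 3 pairs. All 3 pairs gave this p, which tissue ranges that do not overlap always give, so it adds nothing to the ranges. The absolute ratio of 2 probes has no meaning on these arrays.

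In Tbet flox mice 7 of the 10 genes were called higher in PGWAT and 0 lower, where 5.03% of 10882 named genes were called higher. Control mice gave the same 7 genes and 0 lower, against 6.75% of named genes called higher. Fabp4, Scd1 and Dgat2 were above background on no spleen array, and Cd36, Dgat1 and Fabp5 on fewer than the 3 arrays the filter needs. These genes passed the filter only with PGWAT arrays, so a call of lower was hardly open to them. The share of named genes was not split by this. The median difference was 3.31 over the 10 genes and -0.05 over all named genes in Tbet flox mice, and 2.66 and -0.15 in control mice. With genes that were not above background in spleen at their bound, the medians of the 10 were 3.16 in Tbet flox and 2.65 in control mice. The groups did not overlap for 9 of the 10 genes in Tbet flox mice (39.3% of named genes) and for 7 in control mice (37.6%). Both comparisons came from the same fit, and the genes were named with earlier results on these arrays known. Without PGWAT control 1, the array with the most endothelial and stromal signal, and PGWAT Tbet flox 3, the array with the lowest median signal, the count stayed at 7 in both genotypes. Smaller log2 values came without background correction, such as 4.08 and 4.47 for Cd36 and 1.47 and 1.02 for Pparg in Tbet flox and control mice, with all 7 calls kept in both.

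Markers of other cells were also higher in PGWAT. Of 13 tested macrophage and monocyte markers, 2 were called higher in PGWAT in Tbet flox and 12 in control mice; of 7 endothelial markers 3 and 4; of 6 stromal markers 5 and 5; and of 6 adipocyte markers 0 and 1. Lyz1 and Lyz2, near-identical lysozyme genes of macrophages whose probes may share signal, were called in both genotypes and averaged 11.14 and 11.10 in PGWAT Tbet flox, 12.27 and 11.97 in PGWAT control, 8.68 and 8.47 in spleen Tbet flox and 8.06 and 7.89 in spleen control. The third of the brightest genes on that list, the protease gene Ctsb, differed by 0.55 in Tbet flox (limma adjusted p = 0.208) and 0.84 in control mice (adjusted p = 0.0496). The endothelial junction gene Cldn5 averaged 8.54 in PGWAT Tbet flox, 9.67 in PGWAT control, 4.90 in spleen Tbet flox and 4.75 in spleen control, and Esam, another junction gene, 7.35, 9.25, 4.46 and 4.35 in the same order. Pecam1, also found on T cells, differed by 0.28 in Tbet flox (adjusted p = 0.853) and 0.74 in control mice (adjusted p = 0.539). Of the matrix genes, Dcn averaged 9.27 in PGWAT Tbet flox, 9.29 in PGWAT control, 4.32 in spleen Tbet flox and 4.35 in spleen control, and the measured tissue difference in Tbet flox and control mice was 5.16 and 6.55 for Sparc and 3.93 and 4.41 for Col1a2, all called. Sparc, Col1a2 and Esam were above background on no spleen array, so their tissue differences have no exact size. Of the defining adipocyte genes, Plin1, Retn and Slc2a4 were above background on 0 of 12 arrays and Adipoq on 1 PGWAT Tbet flox and 2 PGWAT control arrays. Lep, in contrast, was above background on all 6 PGWAT arrays and no spleen array. Pck1 was so on 3 PGWAT Tbet flox, 2 PGWAT control and no spleen arrays. It averaged 6.69 in PGWAT Tbet flox, 7.10 in PGWAT control, 4.41 in spleen Tbet flox and 4.42 in spleen control, and was not called. Cidec, chosen after its values were seen, was above background on 2 PGWAT Tbet flox, 2 PGWAT control and no spleen arrays. In the opposite sense, 4 of 10 T cell identity genes were called lower in PGWAT in control mice, and in Tbet flox mice 1 was called lower and 1 higher. The part of these cells in the tissue differences was not tested.

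Few of the other genes of fatty acid handling were called. Of 104 such genes in 6 lists, 7 had no matched probe, 40 did not pass the filter and 57 were tested. In Tbet flox mice 5 were called higher in PGWAT (8.77%, against 5.03% of named genes) and 0 lower (5.5% of named genes). In control mice 5 were called higher (8.77%, against 6.75%) and 2 lower (3.51%, against 10.1%). Their median difference was 0.08 in Tbet flox and 0.10 in control mice. These counts depended on single arrays: without spleen Tbet flox 1, 2 or 3 there were 3 calls in Tbet flox mice, and in control mice there were 3 without spleen control 1, 4 without spleen control 2 or 3, and 12 without PGWAT control 2.

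The receptors and partners of PPARγ had 9 tested members of 16. Cebpb, a factor that acts upstream of Pparg in fat cells, was higher in PGWAT in Tbet flox (8.07 against 4.89 in spleen; 3.18 ± 0.55, adjusted p = 0.00529) and control mice (7.42 against 5.36; 2.05 ± 0.55, adjusted p = 0.0305). Cebpd (6.15 in PGWAT against 7.74 in spleen) and the coactivator subunit Med1 (6.43 against 7.39) were lower in PGWAT control mice, by -1.59 ± 0.41 (adjusted p = 0.0252) and -0.96 ± 0.23 (adjusted p = 0.0186), and were not called in Tbet flox mice. Of genes chosen after their values were seen, the sister receptors Ppara and Rxrg and the coactivator Ppargc1a were above background on 0 of 12 arrays.

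In the uptake list (9 tested of 20), Gpihbp1, which holds Lpl on the capillary wall and is also on the endothelial list, was the 1 call in each genotype. It was at least 2.62-fold higher in PGWAT in Tbet flox mice (mean level 6.14 against 4.47 in spleen, adjusted p = 0.0476) and at least 9.46-fold in control mice (8.04 against 4.48, adjusted p = 0.000785), with no spleen array above background. In the triglyceride and droplet list (12 tested of 26), Hilpda, an inhibitor of droplet lipolysis, was higher in PGWAT in Tbet flox (10.02 against 6.57; 3.45 ± 0.34, adjusted p = 0.000138) and in control mice (8.71 against 6.20; 2.51 ± 0.34, adjusted p = 0.000855). In the lipolysis list (5 tested of 8), the monoglyceride lipase Mgll was at least 5.25-fold higher in PGWAT control mice (7.19 against 4.53, adjusted p = 0.00811), and the glycerol channel Aqp7, which is also on the adipocyte list, was higher there (9.40 against 7.62; 1.78 ± 0.40, adjusted p = 0.0131). Neither was called in Tbet flox mice.

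Synthesis and oxidation each gave 1 call, in Tbet flox mice. The elongase Elovl6 was 6.30 in PGWAT against 4.75 in spleen (1.55 ± 0.29, adjusted p = 0.0073), with 7 tested of 16 in its list. Cpt1a, which admits fatty acids to mitochondria, was 8.89 in PGWAT against 7.74 in spleen (1.15 ± 0.29, adjusted p = 0.0317), with 15 tested of 18. Fasn, the fatty acid synthase, also chosen after its value was seen, was above background on 1 array of 12 and Acaca, which makes its substrate, on 0. That a gene was called in 1 genotype does not show that the genotypes differ; that difference was tested separately (below).

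Between genotypes no gene of the set changed by the test, in either tissue. In PGWAT 0 of the 10 genes were called, with a background of 0% of named genes, and the adjusted p ranged from 0.565 to 0.946. At an unadjusted p under 0.05 there were 2, Pparg and Scd2, where 9.35% of named genes had one. In spleen 0 of 10 were called (0.0827% of named genes), and 1, Cd36, had an unadjusted p under 0.05 (18.8% of named genes). In PGWAT the 95% intervals were wide, reaching up to 2.56 for Fabp5 and down to -2.50 for Scd2 on the log2 scale.

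Pparg was the gene whose PGWAT groups did not overlap: each Tbet flox array (7.93 to 8.23) lay above each control array (6.89 to 7.72), by 0.89 ± 0.35 on average (limma adjusted p = 0.581). Groups that did not overlap were found for 14.8% of named genes in this comparison. The second Pparg probe gave 0.04 ± 0.94 and its groups overlapped. In spleen, Pparg differed by 0.45 ± 0.23 in the same direction (adjusted p = 0.33), with overlapping groups. The receptor's genotype difference was 0.43 ± 0.42 larger in PGWAT than in spleen, which is within error (adjusted p = 0.76).

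Scd2 was lower in PGWAT Tbet flox by the measured means, 4.86 ± 0.36 against 6.17 ± 0.86 in PGWAT control (SD, n = 3 each; difference -1.30 ± 0.50, limma adjusted p = 0.565), and the groups overlapped, at 4.53 to 5.25 and 5.18 to 6.71. In spleen its means were 5.23 ± 0.27 in Tbet flox and 5.25 ± 0.37 in control. The difference of the genotype differences was -1.28 ± 0.57 (limma adjusted p = 0.457). Dgat1 ran the other way in PGWAT, 8.48 ± 0.48 in Tbet flox against 7.53 ± 1.00 in control (difference 0.95 ± 0.57, adjusted p = 0.71), and its genotype difference was 1.13 ± 0.61 larger in PGWAT than in spleen (adjusted p = 0.551). Of the 10 genes 0 were called by limma in this comparison of genotype differences (0.119% of named genes), and 1, Scd2, had an unadjusted p under 0.05 (11.9% of named genes).

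Cd36 differed by -0.56 ± 0.40 in PGWAT (adjusted p = 0.76) and by -0.44 ± 0.17 in spleen (limma adjusted p = 0.212). In spleen the groups did not overlap, which held for 23.4% of named genes there. No spleen Tbet flox array was above background. With that group set at the lowest signal above background, it was 1.12-fold lower by the measured means, which does not allow for the spread between arrays. The other PGWAT differences were -0.54 ± 0.48 for Fabp4, 0.65 ± 0.80 for Fabp5, -0.65 ± 0.59 for Lpl, -0.19 ± 0.55 for Plin2, 0.44 ± 0.68 for Dgat2 and -0.40 ± 0.60 for Scd1. Over the 10 genes 4 measured higher and 6 lower, with a median of -0.30, against 0.04 over all named genes.

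**Figure D3:**
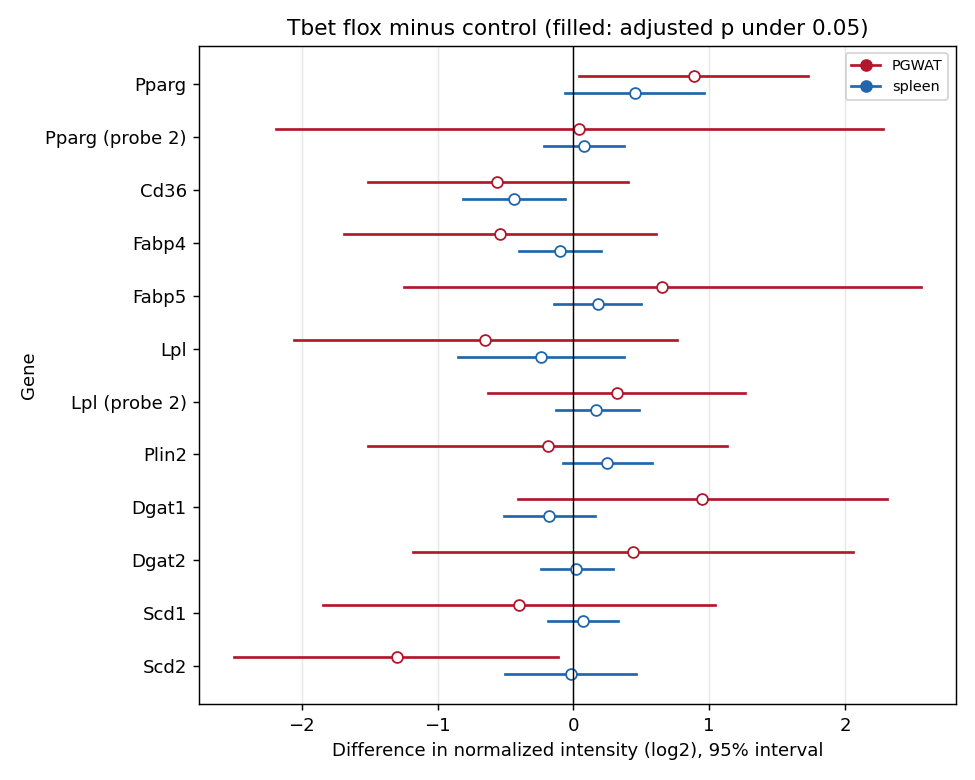
Log2 difference of Tbet flox minus control (x) with its 95% interval for each tested probe of the 10 genes (y), in PGWAT (upper of each pair, red) and in spleen (lower, blue). No point is filled, since no adjusted p was under 0.05, and the PGWAT intervals are wider than the spleen intervals for every probe.

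Of the 57 further pathway genes limma called 0 by genotype in either tissue, and 0 for the difference between the tissues, with 7 in PGWAT, 8 in spleen and 9 for the difference at an unadjusted p under 0.05, which 9.35%, 18.8% and 11.9% of named genes had in these comparisons. The smallest adjusted p per list in PGWAT belonged to Med1 (1.05, adjusted p = 0.503), Gpihbp1 (-1.89, 0.515), Elovl6 (1.85, 0.44), Hilpda (1.31, 0.521), Mgll (-1.18, 0.709) and the oxidation enzyme Hadh (1.21, 0.633). Elovl6 averaged 6.30 in PGWAT Tbet flox, where it was above background on all 3 arrays, and 4.46 in PGWAT control. Its genotype difference was 1.88 larger in PGWAT than in spleen (adjusted p = 0.117). In spleen the smallest adjusted p values were those of the RXR gene Rxrb (-0.68, 0.081) and the mitochondrial carrier Slc25a20 (0.74, 0.0687).

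PGWAT Tbet flox arrays held less signal of other cells by the marker sums. Macrophage and monocyte markers summed to 3811 to 16332 in PGWAT Tbet flox and 22792 to 24454 in PGWAT control, endothelial markers to 767 to 1210 and 1426 to 6326, and adipocyte markers to 596 to 803 and 818 to 2108. The ranges of these 3 sums did not overlap between the genotypes, and those of the stromal list did. By mean log2 level the adipocyte ranges did overlap, at 5.37 to 6.42 in PGWAT Tbet flox and 5.84 to 7.22 in PGWAT control. Among single named genes, 14.8% had groups that did not overlap in this comparison. T cell identity genes summed to 8813 to 9496 in PGWAT Tbet flox and 4323 to 7931 in PGWAT control. None of the genes on these lists was called by genotype in PGWAT. The part of these differences in the genotype values above was not tested.

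Across the 6 PGWAT arrays the 10 genes fell into different patterns beside the marker lists. Cd36, Fabp4, Fabp5, Scd1 and Scd2 were highest on PGWAT control 1 (Fabp5 at 6.79, next to 6.73 on PGWAT Tbet flox 1), the array with the highest endothelial, stromal and adipocyte means and the lowest T cell identity and Treg core means, and Dgat1 was lowest on it (6.47). Pearson's r over the 6 arrays between a gene and the mean of a list was 0.96 for Cd36 with endothelial markers, 0.94 for Fabp4 with endothelial markers and 0.94 for Scd1 with adipocyte markers. Dgat1 had r = 0.90 with Treg core genes and -0.93 with adipocyte markers. Pparg, by its brightest probe, had r = 0.11 with adipocyte, -0.29 with endothelial, -0.59 with macrophage and 0.39 with Treg core genes. Its second probe followed another pattern, highest on PGWAT control 1 (8.71) and lowest on PGWAT control 2 (5.11), and was not set against the lists. The pattern of Pparg thus depends on the probe.

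These coefficients describe 6 arrays that share 2 genotypes and 1 normalization, are some of 70 computed, and carry no p. They rest in part on the extreme arrays: without the 2 arrays farthest from the list's median, Cd36 with endothelial markers came to 0.77, Fabp4 to 0.42, Scd1 with adipocyte markers to 0.81, and Dgat1 to 0.20 with Treg core genes and -0.31 with adipocyte markers. Spearman's rho over the 6 arrays was 0.89, 0.71, 0.83, 0.66 and -0.94 in the same order. Among the genes themselves, Cd36 and Fabp4 had r = 0.97 and Pparg and Cd36 r = -0.19 over these arrays. Pparg moved the other way, to 0.62 with adipocyte, -0.78 with endothelial, -0.88 with macrophage and 0.89 with Treg core genes. With T cell identity genes its r was 0.36 over 6 arrays and 0.96 without the 2 farthest. The size of these coefficients is thus not stable at this number of arrays. Spearman's rho of Pparg over the 6 arrays was 0.09, -0.77, -0.77, 0.66 and 0.77 in the same order. With stromal markers its r was -0.11 over 6 arrays and -0.08 without the 2 farthest. Lpl had its highest coefficient with the macrophage list (0.82), which came to 0.08 without the 2 farthest arrays.

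**Figure D4:**
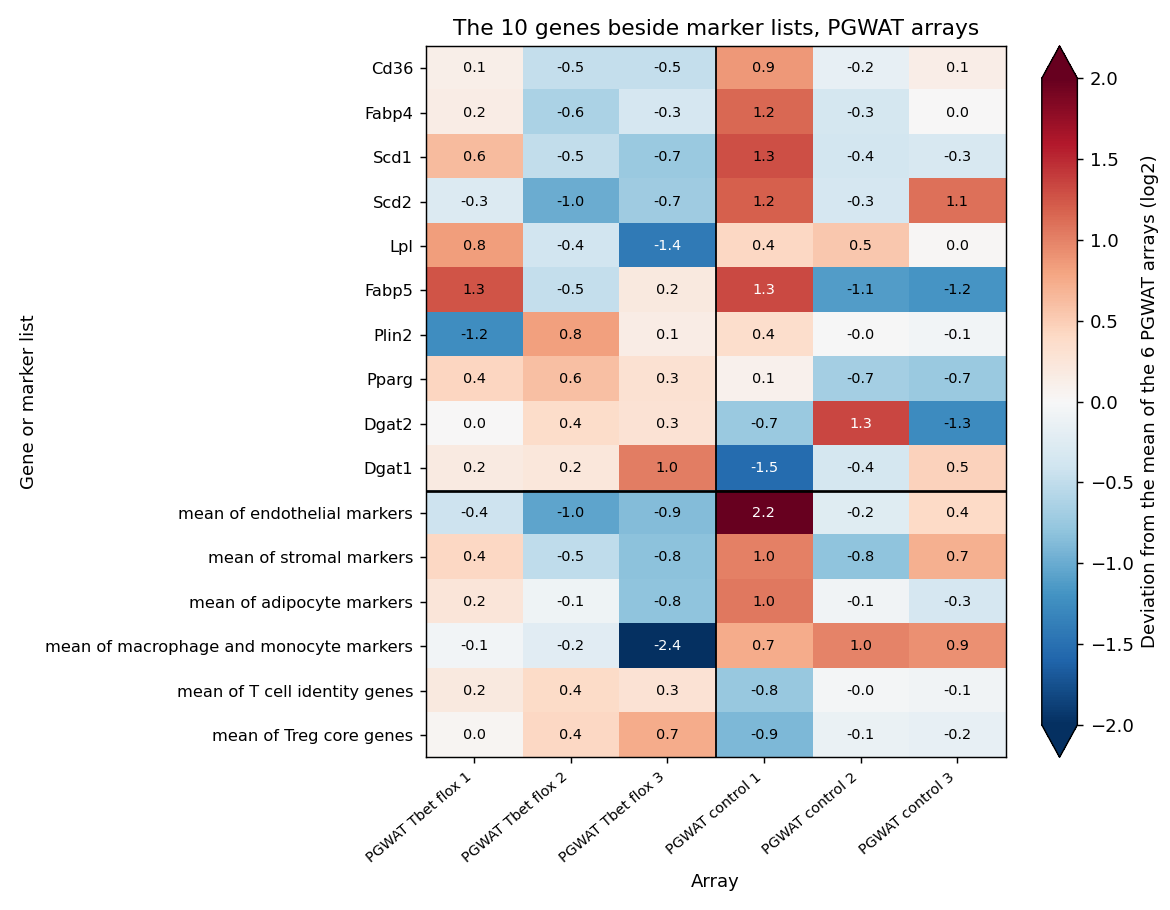
Deviation of each of the 10 genes (top, brightest probe) and of the mean of 6 marker lists (bottom) from its mean over the 6 PGWAT arrays, in log2 units, with Tbet flox arrays left of control arrays and values printed in the cells. On PGWAT control 1 Cd36, Fabp4, Fabp5, Scd1 and Scd2 and the endothelial, stromal and adipocyte means are high and Dgat1 and the T cell and Treg core means are low.

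Over all 12 arrays, the 5 of 10872 other named genes whose levels were most like those of Pparg (brightest probe) were Slc66a2 and Crem (Pearson's r = 0.972 each), Gem (0.965), Ipmk (0.964) and Glul (0.963). Over the 6 PGWAT arrays their coefficients were 0.83, 0.75, 0.82, 0.78 and 0.82. The 12 arrays form 2 tissue clusters, so that the first coefficients mostly repeat the tissue difference, and none carries a p. The 9 companion genes were left out of this search, so it does not show how like Pparg they are.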

How the data were processed

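The deposited table of non-normalized values gave, per the file headers, a bead-averaged intensity and a detection p-value for each probe on each array; both came from GenomeStudio (version not stated), per the submitters' processing notes. The processed intensity values deposited by the authors were used, as log2, for an alternative only. Per the labels, small amounts of total RNA were amplified before labelling, which can widen the spread of dim probes.

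Intensities were background corrected from the detection p-values, offset by 16, put on a log2 scale and quantile normalized together (neqc of limma 3.58.1, R 4.3.3). Probes with a detection p under 0.05 on at least 3 of 12 arrays were kept (22833 of 45281), and the brightest kept probe stood for its gene in counts. Quantile normalization gives every array 1 distribution, so differences are relative to the other probes. Probes were fitted with limma (lmFit, eBayes, two-sided), with Benjamini-Hochberg adjustment over all kept probes. The genotype comparisons used the 6 arrays of a tissue (4 residual degrees of freedom), because PGWAT and spleen spreads differ, and the tissue comparisons and the difference of the genotype differences used all 12 arrays (8). The fit was tested on simulated data.

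The gene set, the lists and the tests were chosen with earlier results on these data known. All probes of the 10 genes are named; of each other pathway list, up to 4 called genes or the 1 with the smallest p, not all of which are printed; of the marker lists, the 3 brightest and defining genes at background, of which some on the T cell, Treg core and adipocyte lists are not printed. Same-numbered arrays did not deviate together (r from -0.19 to 0.07), and the main fits used no pairing. With so few arrays this cannot exclude that same-numbered arrays share an animal, which the labels do not say. Arrays carry no depth, and their number limits the precision.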

Additional observations from a re-analysis of the deposited data

How the results depend on the processing

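The count of the 10 genes past the threshold was 0 for both genotype comparisons and for the difference between them under every alternative run, and 7 for both tissue comparisons except 8 in control mice without PGWAT control 2, 8 in Tbet flox mice with the 6 arrays compared alone and 6 without spleen Tbet flox 3. The count of the 57 other pathway genes moved more. It was 2 for genotype in PGWAT with 1 spread over all 12 arrays, and 1 for genotype in spleen without background correction, with the deposited processed values and with a weight for each tissue, against 0. For tissue in control mice it was 7, but 3 to 12 without single arrays and 3 to 10 under the other alternatives. Among the latter it was 3 with the 6 arrays compared alone and 4 with the replicate block. For tissue in Tbet flox mice it was 5, but 3 with median scaling, 3 with the replicate block, 9 without PGWAT control 1 and PGWAT Tbet flox 3 together (an alternative chosen after seeing the data) and 3 to 5 without single arrays. For the difference of the genotype differences it was 0, but 1 without those 2 arrays and 0 to 2 without single arrays. Some of these fits used fewer arrays, and the cause of the changes was not tested.

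The second Pparg probe between tissues in control mice was called (adjusted p = 0.0392), but not without background correction (0.0873), with the deposited values (0.0797), with an offset of 50 (0.0729), with no filter (0.0949), with the 6 arrays compared alone (0.128) or with the replicate block (0.0603), nor without the 2 arrays (0.0574). In Tbet flox mice it was not called (0.0542), but was with a stricter filter (0.046), with the 6 arrays alone (0.0161), with weights (0.0133) and without the 2 arrays (0.036). Without the 2 arrays the second Lpl probe was called in control mice (0.68, adjusted p = 0.0345).

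Sign changes came from values that were not called. For genotype in PGWAT the second Pparg probe was 0.04, but -0.11 without background correction, -0.30 with median scaling, -0.11 with the deposited values and -0.07 with an offset of 50; without the 2 arrays the second Lpl probe was -0.15 and Scd1 0.42. Scd2 in spleen was 0.01 with median scaling. Fabp5 between tissues in control mice was -0.16 without the 2 arrays. For the difference of the genotype differences the second Lpl probe was -0.01 with median scaling, and without the 2 arrays the second Pparg probe was 0.37, Cd36 0.28, Fabp4 0.04, Lpl 0.18, the second Lpl probe -0.32 and Scd1 0.35. Leaving out single arrays, values ran for genotype in PGWAT from -0.93 to 0.87 (second Pparg probe), -0.02 to 0.51 (second Lpl probe), -0.64 to 0.38 (Plin2), -0.08 to 1.22 (Dgat2) and -0.82 to 0.14 (Scd1); in spleen from -0.48 to 0.02 (Lpl), -0.01 to 0.06 (Dgat2) and -0.22 to 0.14 (Scd2); between tissues in control mice from -0.16 to 1.09 (Fabp5); and for the difference of the genotype differences from -1.0 to 0.80 (second Pparg probe), -0.34 to 0.18 (Cd36), -0.74 to 0.01 (Fabp4), -0.99 to 0.14 (Lpl), -0.19 to 0.34 (second Lpl probe), -0.89 to 0.13 (Plin2), -0.10 to 1.20 (Dgat2) and -0.89 to 0.08 (Scd1).

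Over all probes, genotype in PGWAT gave 0 calls, but 819 with 1 spread over all 12 arrays and 38 with a weight for each tissue; genotype in spleen gave 16, but 0 with 1 spread or no filter, 336 with weights, 123 without background correction, 143 with the deposited values, 10 with median scaling and 0 to 44 without single arrays. The difference of the genotype differences gave 27, but 51, 42 and 63 without background correction, with the deposited values and with an offset of 50, 53 with no filter, 16 with median scaling, 18 with 1 probe per gene, 12 with weights, 332 without the 2 arrays, and 2 to 449 without single arrays. Tissue in control mice gave 1256 probes higher and 2056 lower (981 and 2323 with median scaling), and tissue in Tbet flox mice 913 and 1249 (519 and 2196). In Tbet flox mice median scaling moved the median of all probes from -0.08 to -0.31. The 7 genes kept their calls under it, and no test relative to that median was run. Without single arrays the tissue comparisons in control and Tbet flox mice gave 1597 to 4296 and 828 to 2701 calls. Without the 2 arrays they gave 4659 and 3327. With the replicate block there were 0, 8 and 0 calls for genotype in PGWAT, genotype in spleen and the difference of the genotype differences. The tissue comparisons then gave 2036 calls in control mice and 947 in Tbet flox mice. Whether the replicate numbers pair the arrays was not given. Dim signals limit Fabp5, Dgat2, Scd2, the spleen levels of Fabp4, Scd1, Dgat1 and Cd36, and the spleen control level of Pparg.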

Other observations

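Other genes known from the Tregs of visceral fat were in part higher in PGWAT. Of 10 tested genes of that kind outside the set, 7 were called higher in PGWAT than in spleen in Tbet flox mice (5.03% of named genes) and 0 lower. In control mice 3 were called higher (6.75% of named genes) and 0 lower, and 3 of the 10 measured lower. Rora, a nuclear receptor, averaged 10.75 in PGWAT Tbet flox, 10.20 in PGWAT control, 9.30 in spleen Tbet flox and 8.96 in spleen control (tissue difference 1.44, limma adjusted p = 0.00904 in Tbet flox, and 1.24, adjusted p = 0.0132 in control mice). Batf, a transcription factor of activated T cells, averaged 8.93, 8.81, 10.17 and 9.56 in the same order, lower in PGWAT by the measured means and not called (-1.24, adjusted p = 0.0806 in Tbet flox, and -0.75, adjusted p = 0.25 in control mice). Klrg1, a receptor of differentiated T cells, averaged 10.76, 8.65, 9.29 and 7.96 and was not called between tissues or genotypes. Of 11 tested Treg core genes, 1 was called higher and 3 lower in PGWAT in Tbet flox mice, and 0 higher and 3 lower in control mice. By genotype limma called 0 genes of either list in either tissue.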
